A study of Mus musculus with 7 samples.

Results

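Respiratory complex I was followed through the RNA of its nuclear genes in mouse oocytes of secondary follicles, in which a growing oocyte lies within layers of granulosa cells. The members are the protein-coding rows of the deposited table whose names have the form Nduf followed by a, ab, b, c, s, v or af and a number. This rule finds 45 genes among the 26019 rows, and it takes in subunits of the complex as well as the factors that build it. Membership rests on the gene names alone and not on any measured value. Genes tied to complex I under other names were described as a list of their own, and the subunits encoded by mitochondrial DNA were not analysed here.

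Complex I passes electrons from NADH to ubiquinone and pumps protons out of the mitochondrial matrix. Its peripheral arm holds an N module, which oxidises NADH, and a Q module, which reduces ubiquinone, while its membrane arm carries the proton pumps. Core subunits bind the cofactors, accessory subunits surround and hold them, and assembly factors help to put the arms together without staying in the finished complex. In early oocytes of humans and of the frog Xenopus, complex I has been reported to be scarce or absent, and it appears as oocytes grow.

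The study compared KO libraries (n = 3) with WT libraries (n = 4), all from C57BL/6J mice, with 5 pooled oocytes in each library. The KO mice are Mfn2-/- by the series title and design text, but Mfn1 is the gene given by their genotype label and by the treatment protocol. The age is given as 8 weeks in the design text and protocol and as P1 in the age label, and the promoter or Cre behind the deletion is not stated in the labels. The labels do not tie libraries to mice, and the design text gives 3 mice per group where 4 WT libraries are listed, so p-values here measure only the spread between these libraries.

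The libraries held between 6676076 and 8343915 reads in genes, and 1291 of 19227 tested genes (6.71%) were called. Called means that the limma fit over all tested genes gave a Benjamini-Hochberg adjusted p under 0.05. Mfn2, which encodes a mitochondrial fusion GTPase, had normalised counts of 7.27, 4.55 and 7.66 in the KO libraries, against 35.3, 35.1, 15.0 and 29.2 in the WT libraries (log2 fold change -1.94, SE 0.40, limma adjusted p = 0.00571). Its paralog Mfn1 averaged 330.3 ± 19.9 in KO (SD, n = 3) and 289 ± 36.3 in WT (SD, n = 4), with an adjusted p of 0.499 in the limma fit. A normalised count is a gene's read count divided by 1 size factor per library. All 10 oocyte markers examined were present in every library, but not at even levels. Their summed counts were 144950, 233050 and 145780 in KO 1, KO 2 and KO 3, against 125810 to 170370 in the WT libraries. For 1 of the 10, Ddx4, every KO library (1305 to 2337) lay above every WT library (594 to 988), beside 9.37% of all tested genes. For 3 of the 10 oocyte markers both KO 2 and KO 3 lay above every WT library. The summed counts of 10 granulosa markers were 464, 705 and 722 in KO 1, KO 2 and KO 3, against 430.0 to 463 in the WT libraries. The granulosa genes Foxl2 and Fst lay under 5 in every library. Of the 10, 5 (Amh, Foxl2, Fst, Hsd17b1 and Inha) lay above every WT library in both KO 2 and KO 3. Taken alone, KO 2 lay above every WT library for 28.2% of all tested genes and KO 3 for 30.0%. These shares are for 1 library each, and the share for both together was not computed. Amh, Foxl2 and Fst were at 8.18 or less in every library, so their part in the 5 granulosa markers rests on few reads. All KO libraries lay above every WT library for 0 of the 10, beside 9.37% of all tested genes. Inha, an inhibin subunit of granulosa cells, was at 54.5, 395 and 338 in the KO libraries, against 66.7, 18.1, 23.4 and 11.9 in the WT libraries. Cyp19a1, the aromatase gene on the same list, went the other way, at 98.1 or less in the KO libraries, against 151, 218, 171 and 178 in the WT libraries. Of 5 immune markers listed, 3 had a row. C1qb was at 173 to 248 in KO and 513 to 555 in WT, while C1qa was at 0 in every library but WT 3 (3.74). Cd68 was at 27.3, 18.2 and 9.85 in the KO libraries, against 12.4, 12.8, 10.3 and 14.1 in the WT libraries.

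Transcripts of complex I were little different between KO and WT oocytes. All 45 members passed the filter on low values. Of the 45, 0 were called higher and 1 was called lower in KO (2.22%), against 3.09% and 3.63% of all tested genes called in these directions and 6.71% in either. The member called lower was Ndufa8. The KO and WT libraries did not overlap for 6 members, all of them lower in KO (13.3%, against 9.83% of all tested genes), and for 0 members higher in KO (against 9.37%). Beside Ndufa8 these were Ndufb11, Ndufb4, Ndufab1, Ndufaf6 and Ndufaf8. An unadjusted limma p under 0.05 was reached by 4 members (8.89%), against 21.8% of all tested genes. In bulk samples such as these, fewer cells of a type and less RNA per cell cannot be told apart.

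The sizes of the differences were small and lay on both sides of 0. The log2 fold change of KO over WT was above 0 for 19 members and below 0 for 26, and it ranged from -0.51 for Ndufaf6 to 0.55 for Ndufaf1. Its median over the 45 members was -0.027, beside -0.010 over all 19227 tested genes. For 33 of the 45 members the 95% interval of the fit lay within 0.5 log2 units of 0, and for 44 it lay within 1 log2 unit. The exception was Ndufaf1, whose low counts allowed an interval up to 1.24. Changes of 2-fold or more in either direction were therefore outside the interval for every member but Ndufaf1. The median moved to 0.062 without KO 1 and to -0.12 without KO 3.

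**Figure D1:**
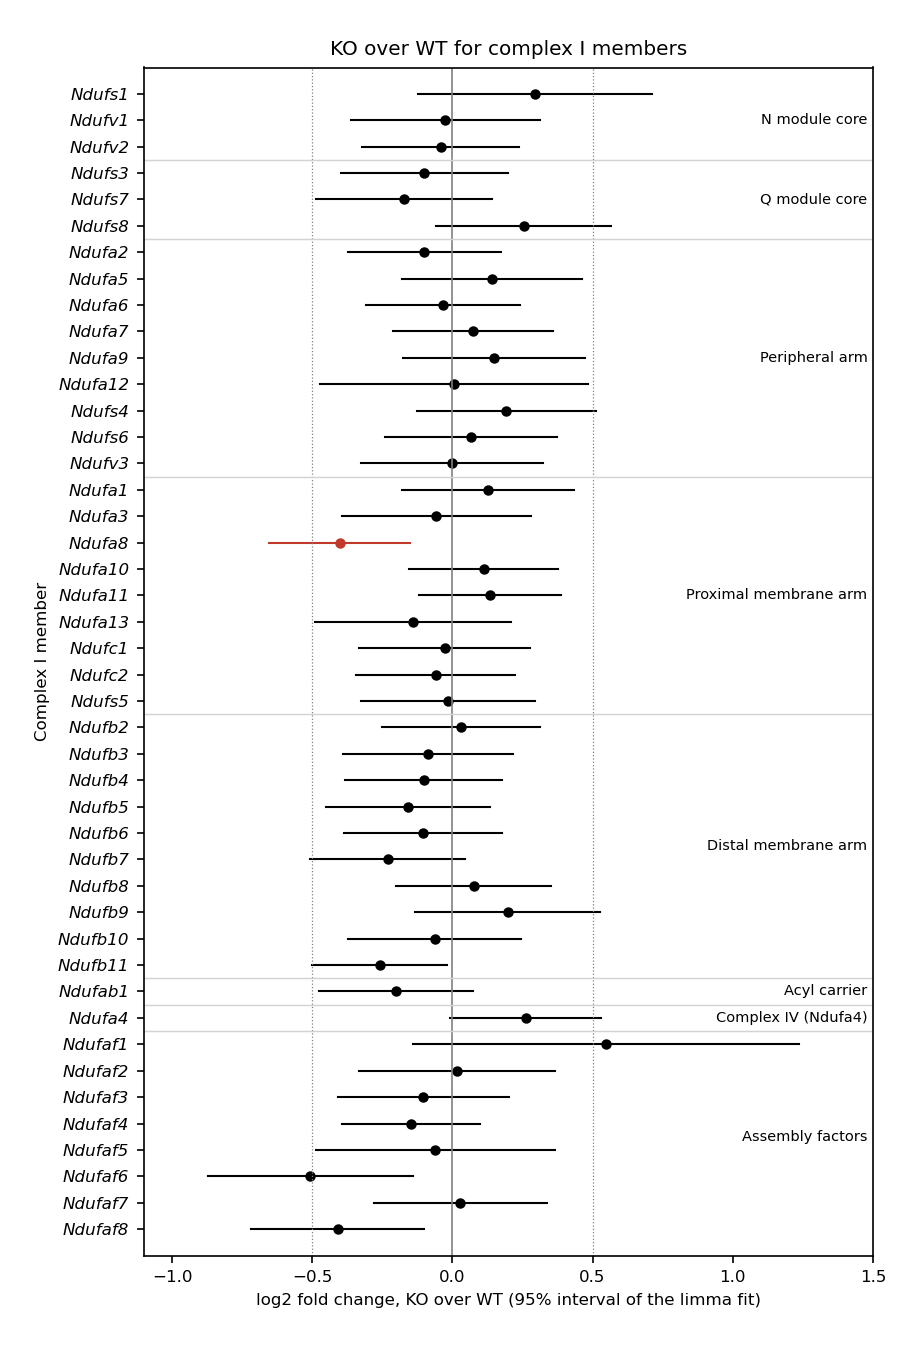
Log2 fold change of KO over WT for 44 of the 45 members, with the 95% interval of the limma fit, grouped by role; dotted lines mark 0.5 log2 units on either side of 0. The red interval is that of Ndufa8 (-0.65 to -0.15), the member called, and the widest interval is that of Ndufaf1.

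Ndufa8 encodes an accessory subunit at the heel of the membrane arm, a protein of the intermembrane space with paired cysteine motifs. The gene (ENSMUSG00000026895.7) lies on GRCm38 chromosome 2 from 36036326 to 36049406, on the minus strand. Its normalised counts were 1408, 1491 and 1533 in the KO libraries, against 1917, 1901, 1867 and 2133 in the WT libraries. Every KO library lay below every WT library, and the gap between the groups was wider than the range within the KO group. Ndufa8 averaged 1477 ± 63.4 in KO (SD, n = 3) and 1954 ± 121 in WT (SD, n = 4), so that KO held 75.6% of the WT mean. The log2 fold change was -0.40 (SE 0.12, 95% interval -0.65 to -0.15, limma adjusted p = 0.0475). This adjusted p was close to the threshold, and the call was kept in 9 of 19 alternative fits. It ended without KO 1 (limma adjusted p = 0.0911), without KO 2 (0.109) and without any of WT 1 to WT 4 (0.0881 to 0.111). The log2 fold change stayed between -0.42 and -0.36 in those fits. The call also ended when KO 1 stood alone for KO, with KO 2 and KO 3 left out (log2 fold change -0.47). It ended too with the mean of the granulosa markers as a covariate of the fit (adjusted p = 0.694). The same held with the replicate number as a block (0.192) and with no filter on low values (0.0536). The granulosa mean on the log2 scale was 3.67, 4.42 and 4.17 in KO 1 to KO 3 and 2.75 to 3.74 in WT. The covariate thus largely followed the groups, and that fit separates it poorly from genotype. The gene shares no 75-base stretch with another annotated transcript, and no exon of another row overlaps it.

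The genes whose levels followed Ndufa8 most closely over the 7 libraries were Commd2, which encodes a COMM domain protein (Pearson r 0.992), Gm17018 (0.986) and Mrps16, a protein of the mitochondrial ribosome (0.985). These correlations describe 7 libraries that the genes share, in groups that differ in level, and carry no test. Mrps16 had 496, 533 and 527 in the KO libraries, against 716, 668, 649 and 737 in the WT libraries, and did not pass the threshold (log2 fold change -0.41, SE 0.13, limma adjusted p = 0.0671). Gm17018 was called lower (log2 fold change -0.47, SE 0.12, limma adjusted p = 0.0259). That call ended without KO 2 (adjusted p = 0.0773) and without WT 1, WT 2, WT 3 or WT 4 (0.0523 to 0.0744), as well as with KO 2 and KO 3 both left out (0.181), the granulosa adjustment (0.677) and the replicate block (0.133).

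Promoter sequences are shown for Ndufa8, Ndufab1, Ndufaf8 and Ndufb4, since the libraries of the groups did not overlap for these members and their promoters hold letters known for factors that drive respiratory genes. The Ndufb11 window holds none of these letters, and Ndufaf6 had no entry. The sequences are from RefSeq on build GRCm38.p6, from 250 bases before the annotated start to 50 bases from the start on, in the direction of transcription. Capitals mark matches on either strand to GCGC and GCGC with NN between them (NRF1), CCGGAAG (GABP), AAGATGG (YY1) or AAGGTCA (estrogen-related receptors). The windows are chr2:36049289-36049588 on the minus strand for Ndufa8, chr7:122101799-122102098 on the minus strand for Ndufab1, chr11:120098684-120098983 on the plus strand for Ndufaf8 and chr16:37654319-37654618 on the minus strand for Ndufb4.
Ndufa8: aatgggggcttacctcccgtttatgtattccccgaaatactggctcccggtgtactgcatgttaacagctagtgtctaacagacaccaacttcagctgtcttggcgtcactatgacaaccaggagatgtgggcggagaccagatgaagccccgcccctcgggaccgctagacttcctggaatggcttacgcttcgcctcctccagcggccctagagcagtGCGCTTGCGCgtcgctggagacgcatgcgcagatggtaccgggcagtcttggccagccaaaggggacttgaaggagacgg
Ndufab1: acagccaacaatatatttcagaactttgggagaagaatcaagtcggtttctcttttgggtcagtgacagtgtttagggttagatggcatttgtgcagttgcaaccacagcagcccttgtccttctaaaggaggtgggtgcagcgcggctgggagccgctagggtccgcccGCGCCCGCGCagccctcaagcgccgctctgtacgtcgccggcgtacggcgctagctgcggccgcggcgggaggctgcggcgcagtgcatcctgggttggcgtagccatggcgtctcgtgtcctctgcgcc
Ndufaf8: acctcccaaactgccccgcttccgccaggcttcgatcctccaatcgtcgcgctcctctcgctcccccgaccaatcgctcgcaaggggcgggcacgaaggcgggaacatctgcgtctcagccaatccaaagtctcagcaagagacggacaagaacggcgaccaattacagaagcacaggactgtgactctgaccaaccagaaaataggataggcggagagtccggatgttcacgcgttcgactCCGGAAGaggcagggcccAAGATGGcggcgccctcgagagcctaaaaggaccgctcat
Ndufb4: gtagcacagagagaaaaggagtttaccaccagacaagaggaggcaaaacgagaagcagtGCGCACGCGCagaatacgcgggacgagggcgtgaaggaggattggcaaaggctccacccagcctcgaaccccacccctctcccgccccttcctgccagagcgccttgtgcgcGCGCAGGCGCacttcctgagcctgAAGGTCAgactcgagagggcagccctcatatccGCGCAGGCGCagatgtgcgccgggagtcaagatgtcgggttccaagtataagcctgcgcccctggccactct

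The Ndufa8 window has 1 NRF1 match, which begins at position -30 from the start, and the Ndufab1 window has 1 at -80. The Ndufaf8 window has a GABP match at -8 and a YY1 match at 10. The Ndufb4 window has 3 NRF1 matches and a match to the estrogen-related receptor letters at -55. Of the 45 members, 40 had a RefSeq promoter entry. The NRF1 letters were found in 11 of these (27.5%), beside 6.43% of 27025 promoters of the same length. The YY1 letters were found in 8 (20%, beside 6.48%), the GABP letters in 6 (15%, beside 9.12%) and the estrogen-related receptor letters in 3 (7.5%, beside 4.66%). The members' promoters were also richer in G and C, with a median of 59.3% beside 52.7%. Matches to different motifs overlapped in 0 member promoters. Members with the NRF1 letters had a median log2 fold change of -0.042, beside -0.025 for those without. The medians with and without were -0.102 and -0.026 for the GABP letters and 0.020 and -0.037 for the YY1 letters. For the estrogen-related receptor letters they were -0.015 and -0.032. A match describes letters in a window and not a bound site.

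The RNAs of the factors named after such motifs were themselves measured. Of 10 listed nuclear regulators of respiratory genes, 9 were tested. Of these 1 was called higher and 1 lower, beside 3.09% and 3.63% of all tested genes. Every KO library lay above every WT library for 4 of the 9 (beside 9.37% of all tested genes) and below for 1 (beside 9.83%). Gabpa, the DNA-binding subunit of GABP, averaged 121 ± 27.4 in KO (SD, n = 3) and 51.4 ± 7.47 in WT (SD, n = 4), higher by 1.21 on the log2 scale (SE 0.23, limma adjusted p = 0.00326). Esrrg, an estrogen-related receptor, averaged 15.7 ± 3.94 in KO and 37.5 ± 8.77 in WT, with a log2 ratio of -1.21 (SE 0.32, limma adjusted p = 0.0279). Exons of Gabpa overlap exons of Atp5j on the opposite strand, so reads of that stretch cannot be told apart. The Esrrg call ended without KO 2 (adjusted p = 0.102), without WT 3 (0.0870) and without WT 4 (0.0815). Gabpa was called in each fit that left out 1 library, and lost the call when KO 1 stood alone for KO (a log2 value of 0.89, adjusted p = 0.310) and with the granulosa adjustment (1.14, adjusted p = 0.401). These alternatives also ended the Esrrg call (adjusted p = 0.276 and 0.712), as did the replicate block (0.0746). The median over the 9 was 0.12.

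In the N module, which oxidises NADH, 0 of 3 core members were called and the median log2 fold change was -0.025. Ndufs1, the largest iron-sulfur subunit, had 128, 190.0 and 212 in the KO libraries, against 149.7, 149, 116 and 152 in the WT libraries. KO 1 lay within the WT range and KO 2 and KO 3 above it (log2 fold change 0.29, SE 0.20, limma adjusted p = 0.423). Ndufv2, which carries an iron-sulfur cluster, had 931, 1049 and 1153 in the KO libraries, against 1208, 929.8, 1080 and 1086 in the WT libraries. Its groups overlapped (log2 fold change -0.042, SE 0.14, limma adjusted p = 0.895).

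In the Q module 0 of 4 core members were called, and the median was 0.0083. Ndufs8, an iron-sulfur subunit, had 452, 646 and 524 in the KO libraries, against 480.5, 428, 434 and 454 in the WT libraries. KO 2 and KO 3 were above the WT range and KO 1 was inside it (log2 fold change 0.25, SE 0.15, limma adjusted p = 0.342). Ndufs7, which carries the last cluster before ubiquinone, had 923, 1464 and 1048 in the KO libraries, against 1239, 1204, 1166 and 1473 in the WT libraries. The KO 1 and KO 3 values lay below the WT range while KO 2 lay within it (log2 fold change -0.17, SE 0.15, limma adjusted p = 0.555).

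Among the 9 accessory subunits of the peripheral arm 0 were called, and the median was 0.068. Ndufs4, a small subunit that joins late and steadies the N module, had 779, 1040.0 and 1296 in the KO libraries, against 945, 885, 819.7 and 915 in the WT libraries. KO 1 lay below the WT range and KO 2 and KO 3 above it (log2 fold change 0.19, SE 0.15, limma adjusted p = 0.506). Ndufa12, another subunit of the peripheral arm, had 134, 300.0 and 279 in the KO libraries, against 240.2, 233, 223 and 198 in the WT libraries. Its KO libraries thus stood on both sides of the WT range, and its fold change was near 0 (log2 0.0062, SE 0.23, limma adjusted p = 0.992). Ndufa2 averaged 1868 ± 322 in KO (SD, n = 3) and 1987 ± 129 in WT (SD, n = 4), with a limma adjusted p of 0.714.

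Among the 9 accessory subunits of the proximal membrane arm Ndufa8 was the member called, and the median was -0.027. Ndufa11, a membrane subunit also known for contacts with complex III, had 2037, 2282 and 2495 in the KO libraries, against 2082, 2179, 1947 and 2050.4 in the WT libraries. KO 2 and KO 3 were above the WT range (log2 fold change 0.13, SE 0.12, limma adjusted p = 0.57). Ndufa13, also known as GRIM-19, averaged 327 ± 75.3 in KO and 354 ± 29.3 in WT, with a log2 fold change of -0.14 (SE 0.17). Its exons overlap those of Tssk6 on the opposite strand over 30.0% of its exon bases, and the kit does not mark strand, so reads there cannot be assigned.

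Among the 10 accessory subunits of the distal membrane arm 0 were called, and the median was -0.095. For 2 of the 10 the groups did not overlap, with KO lower, beside 9.83% of all tested genes. Ndufb11, an X-linked subunit, had 2337, 2722 and 2495 in the KO libraries, against 2893, 2996, 3095 and 3052 in the WT libraries. Every KO library was lower than every WT library, with means of 2518 ± 193 in KO and 3009 ± 87.1 in WT, but the difference did not pass the threshold (log2 fold change -0.26, SE 0.12, limma adjusted p = 0.194). Ndufb4 had 526, 505 and 490.1 in the KO libraries, against 554, 549, 535 and 542 in the WT libraries. The groups did not overlap although they differed little (log2 fold change -0.10, SE 0.13, limma adjusted p = 0.712). Ndufb4 had the smallest coefficient of variation of all members in both groups, 3.55% in KO and 1.54% in WT.

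Ndufab1, the mitochondrial acyl carrier protein, serves fatty acid synthesis and is also a subunit of both arms. It had 773, 879 and 920.02 in the KO libraries, against 953, 943, 937 and 1106 in the WT libraries. The groups did not overlap (log2 fold change -0.20, SE 0.13, limma adjusted p = 0.407). Ndufa4 carries a complex I name and was later placed in complex IV. It had 1900.5, 2205 and 2659 in the KO libraries, against 1803, 1877, 1930.1 and 1847 in the WT libraries. KO 1 lay within the WT range and KO 2 and KO 3 above it (log2 fold change 0.26, SE 0.13, limma adjusted p = 0.243).

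Among the 8 assembly factors 0 were called, and the median was -0.083. For 2 of the 8 every KO library was below every WT library, beside 9.83% of all tested genes. Ndufaf6, which is needed for the membrane subunit ND1 in human cells, lies on chromosome 4 from 11051045 to 11076205 on the minus strand. It had 135, 155 and 127 in the KO libraries, against 207, 202, 209 and 172 in the WT libraries. Its KO mean was 70.3% of the WT mean, the lowest share among the members (log2 fold change -0.51, SE 0.18, limma adjusted p = 0.0865). Ndufaf8, a partner of NDUFAF5 in human cells, lies on chromosome 11 from 120098928 to 120100705 on the plus strand. It had 379.7, 424 and 317 in the KO libraries, against 474, 472, 495 and 534 in the WT libraries. Its KO mean was 75.7% of the WT mean, close to the share of Ndufa8, with a wider spread between KO libraries (log2 fold change -0.41, SE 0.15, limma adjusted p = 0.102). Neither gene passed the threshold in any of the 19 alternative fits. Ndufaf5 itself, an enzyme that hydroxylates an arginine of NDUFS7 in human cells, averaged 117 ± 19.6 in KO and 123 ± 24.0 in WT.

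Ndufaf4, which acts with Ndufaf3 on the Q module, averaged 3419.5 ± 411 in KO and 3771 ± 132 in WT (log2 fold change -0.15, SE 0.12, limma adjusted p = 0.508). Ndufaf1, a factor of the membrane arm, had 21.8, 45.5 and 37.2 in the KO libraries, against 19.1, 27.7, 17.8 and 27.1 in the WT libraries. It was the member with the fewest reads, and KO 1 lay within the WT range while KO 2 and KO 3 lay above it (log2 fold change 0.55, SE 0.33, limma adjusted p = 0.352).

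**Figure D2:**
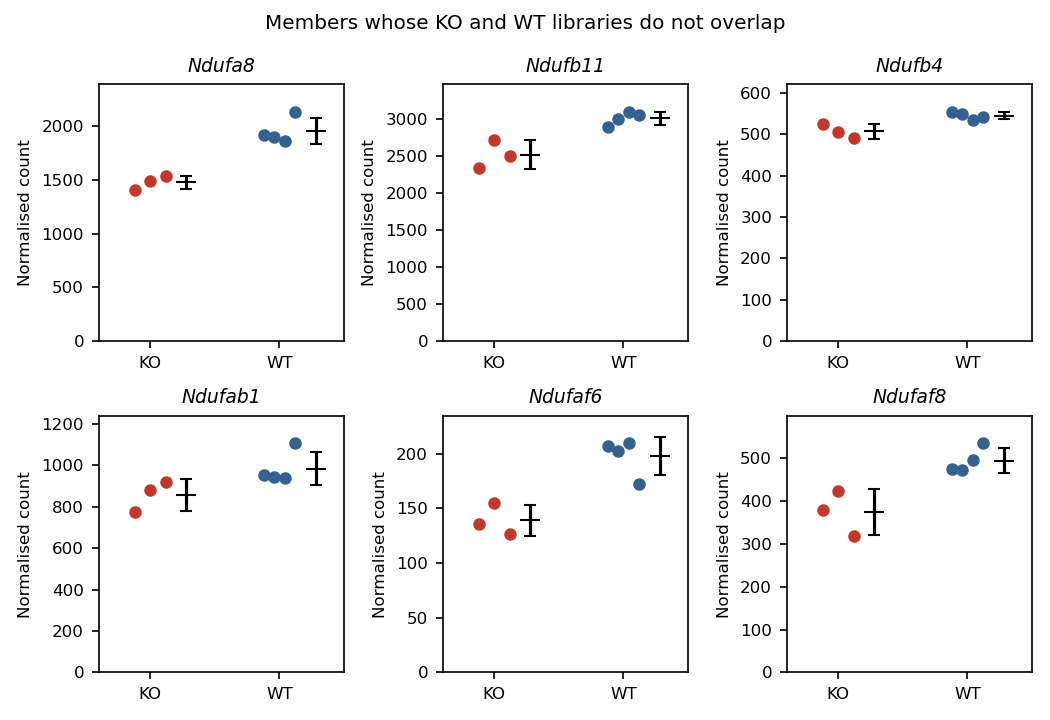
Normalised counts of the 6 members without overlap between KO and WT, 1 point per library (KO n = 3, left; WT n = 4, right), with the mean and SD as a bar beside the points; the axes start at 0. In each panel all KO points lie below all WT points, and the KO means of Ndufa8, Ndufaf6 and Ndufaf8 are 75.6%, 70.3% and 75.7% of their WT means.

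The KO libraries differed among themselves more than the WT libraries did. The SD of the log2 values was larger in KO than in WT for 37 of the 45 members (82.2%), beside 57.8% of all tested genes and 67.2% of those with a WT mean of at least 100. The coefficient of variation over the members had a median of 14.8% in KO and 7.25% in WT. The difference between KO libraries had a direction shared by most members. KO 1 was the lowest of the KO libraries for 39 of 45 members (86.7%), beside 33.2% of all tested genes. KO 1 lay below every WT library for 32 members (71.1%, beside 23.8% of all tested genes) and above every WT library for 0 (beside 23.4%). KO 2 lay below for 14 (31.1%, beside 28.1%) and above for 18 (40%, beside 28.2%). KO 3 lay below for 9 (20%, beside 27.0%) and above for 23 (51.1%, beside 30.0%).

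The median log2 ratio of the 45 members to their WT means was -0.23 in KO 1, -0.020 in KO 2 and 0.16 in KO 3. The sum of their normalised counts was 36285, 43027 and 45296 in the KO libraries, against 43545, 41355, 40639.7 and 44267 in the WT libraries. KO 1 lay below the WT range and KO 3 above it, and KO 2 was inside. KO 1 had the lowest median of the KO libraries in each of the role groups. The accessory subunits of the peripheral arm had medians of -0.20, 0.20 and 0.25 in KO 1, KO 2 and KO 3, and those of the distal membrane arm had -0.28, -0.097 and 0.046. The core of the N module had -0.13, 0.34 and 0.11 and that of the Q module -0.26, 0.37 and -0.14, so that in both KO 2 was the highest library in place of KO 3. The granulosa marker sums given above were also lowest in KO 1 among the KO libraries, and their part in this pattern was not tested. With KO 2 and KO 3 both left out, the median log2 fold change of the members was -0.23, and after adjustment for the mean of the granulosa markers it was -0.16.

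**Figure D3:**
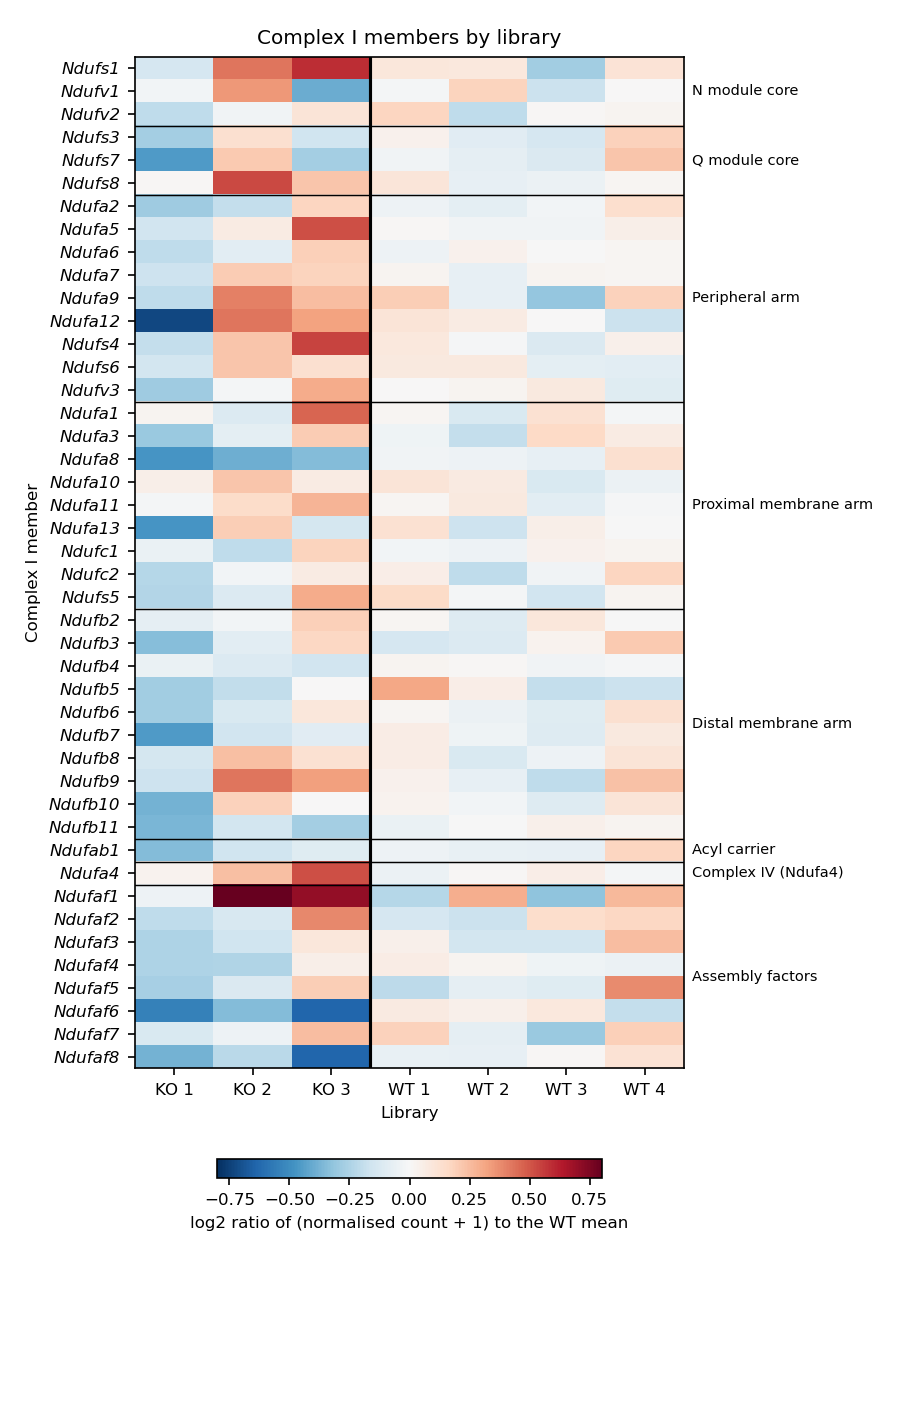
Log2 ratio of (normalised count + 1) to the WT mean for 44 of the 45 members (rows, grouped by role) in each library (columns, KO left of WT); colours stop at 0.8 on either side. KO 1 is mostly blue, with 32 of all 45 members below every WT library, and KO 3 mostly red, with 23 above.

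Low values of KO 1 were also frequent in other lists of genes that most cells use. KO 1 lay below every WT library for 60.5% of 38 subunits of complexes II to V and for 57.3% of 75 mitochondrial ribosomal protein genes. The share was 62% for 79 cytosolic ribosomal protein genes. It was 26.5% for 6099 other protein-coding genes with a WT mean and an mRNA length within the range of the members. The low values of KO 1 were thus not seen for complex I members alone, and no test of the members against these lists was made.

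Among the 38 tested genes of complexes II to V, 1 was called higher and 0 lower, beside 3.09% and 3.63% of all tested genes. Their median log2 fold change was 0.019. The gene called was Atp5g3, which encodes the c subunit of ATP synthase, at 795 ± 161 in KO (SD, n = 3) and 396 ± 20.5 in WT (SD, n = 4; log2 fold change 0.98, SE 0.15, limma adjusted p = 0.000814). It was called in each fit that left out 1 library and lost the call when KO 1 stood alone for KO (a log2 value of 0.62, adjusted p = 0.165) and with the granulosa adjustment (0.73, adjusted p = 0.418). Atp5g1 and Atp5g2, which also encode the c subunit, were not called. Atp5g1 averaged 1035 ± 119 in KO and 1076 ± 85.3 in WT (limma adjusted p = 0.844). Atp5g2 averaged 76.1 ± 13.0 in KO and 73.1 ± 8.49 in WT (limma adjusted p = 0.927). Of 17 names listed for genes tied to complex I that the naming rule leaves out, 14 had a tested row. Ndufb4c, a processed pseudogene row of Ndufb4, is among the 14. Of these 14 rows, 1 was called higher and 0 lower, beside 3.09% and 3.63% of all tested genes, and the median was 0.053. The gene called was Chchd4, the import receptor that oxidises proteins with paired cysteine motifs such as Ndufa8, with 69.0, 157 and 107 in the KO libraries, against 59.1, 66.0, 44.9 and 59.6 in the WT libraries. All KO libraries were above all WT libraries (log2 fold change 0.88, SE 0.26, limma adjusted p = 0.0459). That call ended without KO 2 (adjusted p = 0.250), without KO 3 (0.106) and without any single WT library (0.0662 to 0.134). It also ended when KO 1 stood alone for KO (a log2 value of 0.28, adjusted p = 0.813), with the granulosa adjustment (0.53, adjusted p = 0.821), with library-total scaling (adjusted p = 0.0571) and with the replicate block (0.0548).

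Levels between genes were compared as mean normalised counts per kilobase of the principal mRNA. Ndufa11 stood highest, at 4168 per kilobase in KO and 3788 in WT. It was followed in WT by Ndufa2 (3266 in KO and 3474 in WT), Ndufb11 (2773 in KO and 3314 in WT), Ndufa4 (3697 in KO and 3056 in WT) and Ndufa8 (1716 in KO and 2269.9 in WT). The order depended on the length used: per kilobase of all annotated exons, Ndufa11 stood at 1890.7 in WT, below Ndufa2 (3474), Ndufb11 (3314) and Ndufa8 (2269.9). Per kilobase of the principal mRNA Ndufaf1 stood lowest, at 24.0 per kilobase in KO and 15.8 in WT, below Ndufs1 at 66.4 in KO and 53.2 in WT. The highest and lowest members were 240.0-fold apart in WT. Against 14218 tested protein-coding genes with a length, the median member stood at percentile 92.6 in WT, and 32 of the 45 members stood in the top 10%. Ndufaf1 was the 1 member below the median of those genes. These percentiles are per kilobase of the principal mRNA and depend on that length. By normalised count alone, Ndufb4 stood at percentile 82.4 in WT in place of 90.8, and Ndufaf4 at 98.4 in place of 94.8. Core subunits of the N module were present per kilobase below most accessory subunits of the membrane arm, with Ndufv2 highest among them at 615 in KO and 634 in WT.

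**Figure D4:**
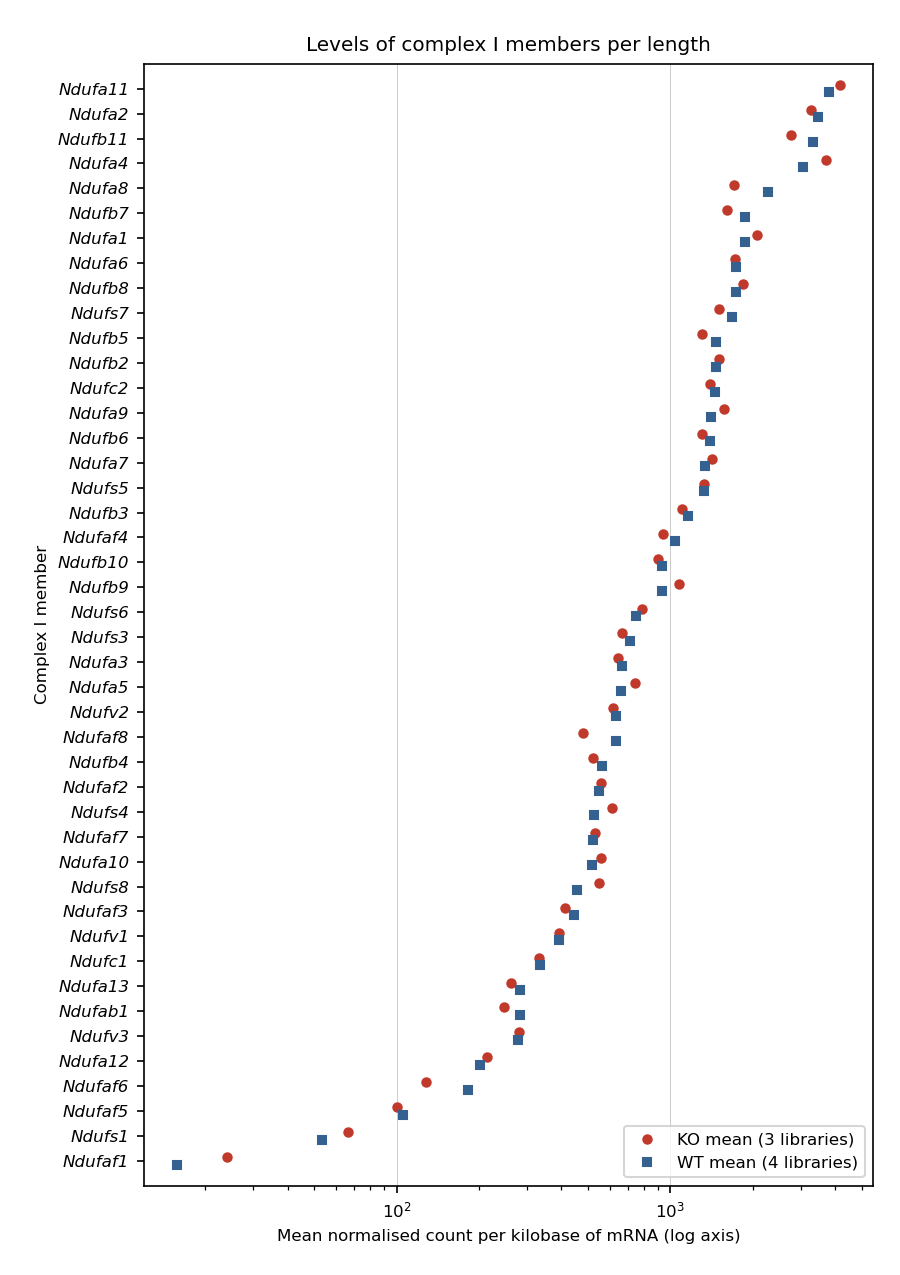
Mean normalised count per kilobase of mRNA on a log axis for 44 of the 45 members in KO (circles) and WT (squares), ordered by the WT level. Members range from Ndufaf1 (24.0 in KO and 15.8 in WT) to Ndufa11 (4168 in KO and 3788 in WT), and the KO and WT symbols lie close together for most.

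Several members share sequence with processed pseudogenes that the table lists as rows of their own, and the authors' counting may have split reads between them. For Ndufab1, Gm4459 had 1030.2, 1104 and 1291 in the KO libraries, against 1289.9, 1377, 1462 and 1418 in the WT libraries, which is 141% of the member's own WT mean. For Ndufb4, the row of Ndufb4c had 699, 674 and 748 in the KO libraries, against 889, 808, 1091 and 900.1 in the WT libraries (log2 fold change -0.38, SE 0.14, limma adjusted p = 0.105). Ndufb4c had every KO library below every WT library, while for Gm4459 the KO 3 value was just above that of WT 1. Gm15920 stood at 99.0% of Ndufa12, Gm12251 at 47.9% of Ndufs3 and BC002163 at 26.1% of Ndufs5 in WT means. With member and copies summed, the log2 fold change was -0.27 for Ndufb4 and -0.23 for Ndufab1, and 0 further members were called. The values of these members are therefore uncertain in level, and for Ndufb4 and Ndufab1 also in the size of the difference. Ndufaf2 shared 63.2% of its 75-base stretches with other transcripts, most of them of a lincRNA on chromosome 13, and Ndufb6 shared 27.8%. Ndufb6 overlaps Smim27 on the opposite strand over 39.0% of its exon bases, Ndufb11 overlaps Rbm10 over 12.9% and Ndufb5 overlaps Mrpl47 over 12.3%.

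**Figure D5:**
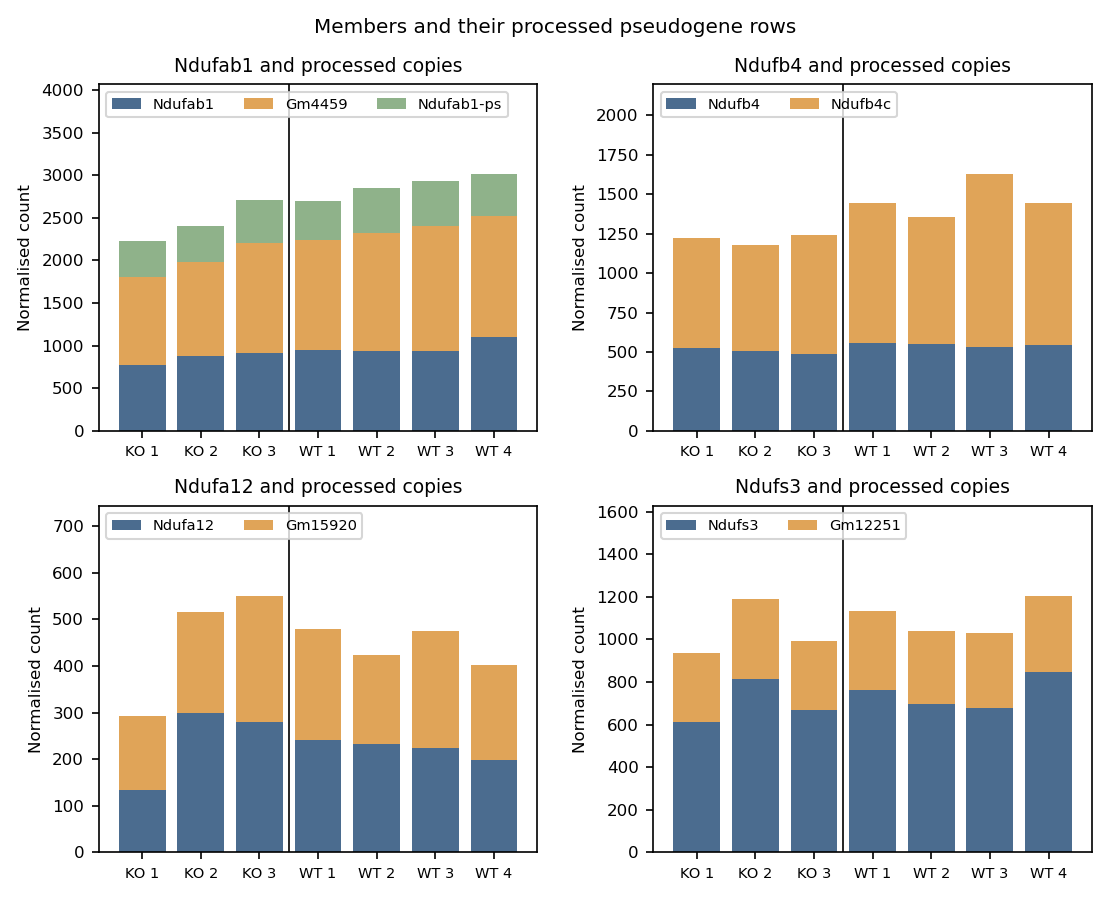
Normalised counts of Ndufab1, Ndufb4, Ndufa12 and Ndufs3 with their processed pseudogene rows stacked on top, by library (KO left of the line, WT right of it); the axes start at 0. The copies add as much as or more than the member itself for Ndufab1, Ndufb4 and Ndufa12 (Gm4459 alone 141%, Ndufb4c 169% and Gm15920 99.0% of the member's WT mean).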

How the data were processed

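RNA of 5 pooled oocytes per library was measured by Smart-Seq2 and Nextera XT libraries with 75-base paired reads, per the labels' protocols. The authors deposited 1 table of normalised signal per gene. STAR, cutadapt, FastQC, DESeq and DESeq2 are named as tools, and GRCm38 (mm10) as the build, per the submitters' processing notes. No read counter is given in the sources used here. The deposited signal values were counts divided by a size factor (0.914 to 1.10 per library): values that stand for no more than 1000 reads came out whole in 100% of cases, and 99.9% or more of every library's values lay within 0.05 of a whole number of reads.

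The main test was limma 3.58.1 (R 4.3.3) with trend and robust variances on log2(value + 1). It covered 19227 genes, those that reached 1 in 3 or more libraries, KO (n = 3) against WT (n = 4), Benjamini-Hochberg adjusted p under 0.05. Fold changes on this scale understate the change of low genes. edgeR 4.0.16 and DESeq2 1.42.0 on the recovered reads, other pseudocounts, scalings and filters, each library left out, a granulosa covariate and a replicate block were alternatives; summing members with their pseudogene copies was added after seeing the data. The fit was tested on simulated data.

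The genes named are Mfn2 and Mfn1, called members, members whose groups do not overlap, and in each role group the members with the highest and lowest level per kilobase and the smallest p. The length is that of the principal mRNA, in place of all annotated exons. Transcript use was not measured, and the choice changes the order of levels. Of the other lists only called genes are named, besides Nrf1 and Yy1, whose motifs were searched. Atp5g1 and Atp5g2 are named too, as they encode the same subunit as Atp5g3. Values of 1 member that the rule names are not reported here; it is counted in every total, median and sum. Lengths and coordinates are from GENCODE M21 (GRCm38), in which 41 rows had no match, and promoters from RefSeq (GRCm38.p6). Members and lists were chosen with earlier results of these data known. Ndufaf5, Ndufb5, Ndufb6, Ndufaf2, Nrf1, Yy1, Atp5g1, Atp5g2 and the pseudogene rows were chosen after their values were seen. So were the ribosomal protein genes, the genes in the members' range of level and length, and the oocyte and granulosa genes described singly.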

Additional observations from a re-analysis of the deposited data

Results flagged for a closer look

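In 3 of 48 groups examined, the highest or lowest of the 4 WT libraries stood apart by Dixon's test at the 95% level, a rate near the 1 in 20 that chance gives. Ndufs1 was at 116 in WT 3, against 149 to 152 in the other WT libraries, and the log2 fold change of KO over WT was 0.29 with all libraries. Ndufa7, a peripheral arm subunit, was at 676 in WT 2, against 715 to 719 in the other WT libraries. Ndufab1 was at 1106 in WT 4, against 937 to 953 in the other WT libraries. Groups of 3 KO libraries were not examined in this way.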

How the results depend on the processing

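Leaving out each library in turn, the count over all genes ranged from 594 (without WT 3) to 1767 (without KO 1), against 1291 with all libraries, and the members called ranged from 0 to 1. In these fits the members' median log2 fold change ranged from -0.12 to 0.062. After adjustment for the mean of the granulosa markers, 6 genes and 0 members were called. In that fit the members' median was -0.16 and Mfn2 had -1.66 (limma adjusted p = 0.541). This covariate largely followed the groups, so the fit cannot tell genotype and granulosa signal apart. With KO 2 and KO 3 both left out, 98 genes and 0 members were called, the median was -0.23 and Mfn2 had -1.77 (adjusted p = 0.158); the lone KO library is then assumed to vary like WT. Without a filter on low values 1621 genes and 0 members were called, with Ndufa8 at a limma adjusted p of 0.0536. The cause of the changes in these fits was not tested. On the recovered reads edgeR called 1334 genes and DESeq2 1457. Ndufa8 was also called by edgeR (adjusted p = 0.0427) and DESeq2 (0.0200), and its adjusted p ranged from 0.0200 to 0.694 over all alternatives.

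The replicate numbers of the titles were tried as a block, a fit that leaves WT 4 without weight. Deviations of same-numbered libraries had correlations of -0.12, 0.026 and 0.022, beside -0.116 to 0.093 for the other pairs. Same-numbered libraries were thus no more alike than others, which cannot show whether they were prepared together. With the replicate block 1022 genes and 0 members were called, with 3 members at an unadjusted p under 0.05 by limma.

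Fold changes of some members that were not called changed sign. Ndufa12, near 0 with all libraries, had -0.016 with CPM by library totals, -0.051 with the block, -0.027 with copies summed, -0.55 with the granulosa covariate and -0.73 without KO 2 and KO 3, and -0.20 to 0.37 with single libraries left out. Without KO 2 and KO 3, Ndufa11 had -0.018, Ndufaf1 -0.041, Ndufs1 -0.13 and Ndufs4 -0.19. With the granulosa covariate, Ndufs4 had -0.049 and Ndufs8 -0.023. With single libraries left out, Ndufa13 ranged from -0.31 to 0.026 and Ndufv2 from -0.12 to 0.038. At this depth and number of libraries, the interval of the fit reached past 0.5 log2 units for all but 33 of the 45 members.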
